A study of Anableps anableps with 4 samples.

Results

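The circadian clock genes described here are 12 of the 22934 genes listed for the four-eyed fish Anableps anableps, of which 16019 had at least 1 unique molecular identifier (UMI, the count of 1 captured RNA molecule). They carry 10 gene symbols, dbpb, tefb, per1b, PER3, BHLHE41, BHLHE40, CRY2, nr1d2a, nr1d4b and CIART. The symbols had been picked, as a set, on the difference between adult and developmental sections of these same data. That difference is therefore given below as a description with no test, and not every gene was higher in the adult sections. 2 genes share the symbol BHLHE40 and 2 share CRY2, and they were kept apart by identifier: BHLHE40 copy A is ENSABLG00000001551, BHLHE40 copy B is ENSABLG00000020251, CRY2 copy A is ENSABLG00000003387 and CRY2 copy B is ENSABLG00000012024. The data are Visium spatial transcriptomes, in which poly(A) RNA of a frozen tissue section is caught on an array of barcoded spots, each spot reporting a small piece of tissue that can hold several cells. The sections were cut at 10 µm, and 4 capture areas were used. They held a stage 4 head, a stage 3 head placed beside a stage 5 eye (the mixed area below), and the eyes adult 1 and adult 2, and values below follow that order. No genotype or treatment is given. The mixed area is 1 library and its head and eye were not separated. The developmental groups have 1 section each and the adult group has 2. Whether the adult sections come from separate animals is not stated, so the p-values refer to these sections only. The spread they are set against is estimated largely over all genes together, not gene by gene. The hour of day and the lighting at collection are not given either, and since clock transcripts rise and fall over the day, stage and time of collection cannot be told apart.

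The vertebrate clock is a loop of transcription factors. CLOCK and its partner ARNTL (BMAL) activate the period and cryptochrome genes, whose proteins enter the nucleus and repress that activation. A second loop is formed by the nuclear receptors of the REV-ERB (NR1D) and ROR families, which repress or activate ARNTL. BHLHE40 and BHLHE41 (DEC proteins) and CIART (CHRONO) also repress CLOCK and ARNTL, and the PAR bZIP factors DBP, TEF and HLF carry the rhythm to output genes. The retina holds a clock of its own that times melatonin synthesis and photoreceptor renewal, and in zebrafish other tissues also keep clocks that light can set directly.

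Retina, lens, muscle and surface epithelium were each taken as the spots of at least 100 UMIs whose markers for that tissue were enriched over the section's mean spot more than those of any other of 9 marker lists. The sections held 1514666 to 5167411 UMIs. Retina marker spots numbered 93 at stage 4, 71 in the mixed area, 165 in adult 1 and 213 in adult 2, with 81237, 87909, 167975 and 193633 UMIs in that order. Retina markers made up 3.27% to 4.27% of the UMIs of these spots in all 4 sections, and 18 of the 88 retina markers had no UMI in them. Lens, muscle and surface epithelium markers in the retina spots stayed at or below 0.473%. Blood markers made up 0.315% to 0.971% there in the developmental sections and 0.197% to 0.233% in the adult sections, and their part in the results was not tested. Crystallins, the bulk proteins of the lens, took 25.5% to 48.5% of the UMIs of lens spots and 0.423% to 5.27% of those of retina spots. Levels are in CPM, the UMIs of a gene per 1000000 UMIs of the region. Intervals are exact 95% Poisson intervals and cover counting error only. A level of 0 in retina spots allows up to 36.9, 34.1, 17.9 and 15.5 CPM (3 counts) in the section order above. Fewer cells of a type in a spot and less RNA per cell cannot be told apart. The 12 genes gave 3453 UMIs over the 16 region sums, from 61 to 924 per gene.

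In all 4 sections the summed clock genes were higher in retina marker spots than in lens, muscle or surface epithelium marker spots. The sum in retina was 2068 CPM at stage 4, 2161 CPM in the mixed area, 4709 CPM in adult 1 and 3930 CPM in adult 2. In muscle it was 274, 204, 968 and 921 CPM in that order, in surface epithelium 465, 179, 470 and 599 CPM, and in lens 147, 79.9, 43.4 and 51.0 CPM. In the adult eyes the regions therefore ordered as retina, muscle, surface epithelium and lens, with no overlap between sections at any step. In the developmental sections muscle and surface epithelium overlapped between retina above and lens below. With spots grouped by Leiden clustering in place of the marker rule, the stage 4 retina sum was 1045 CPM.

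**Figure D1:**
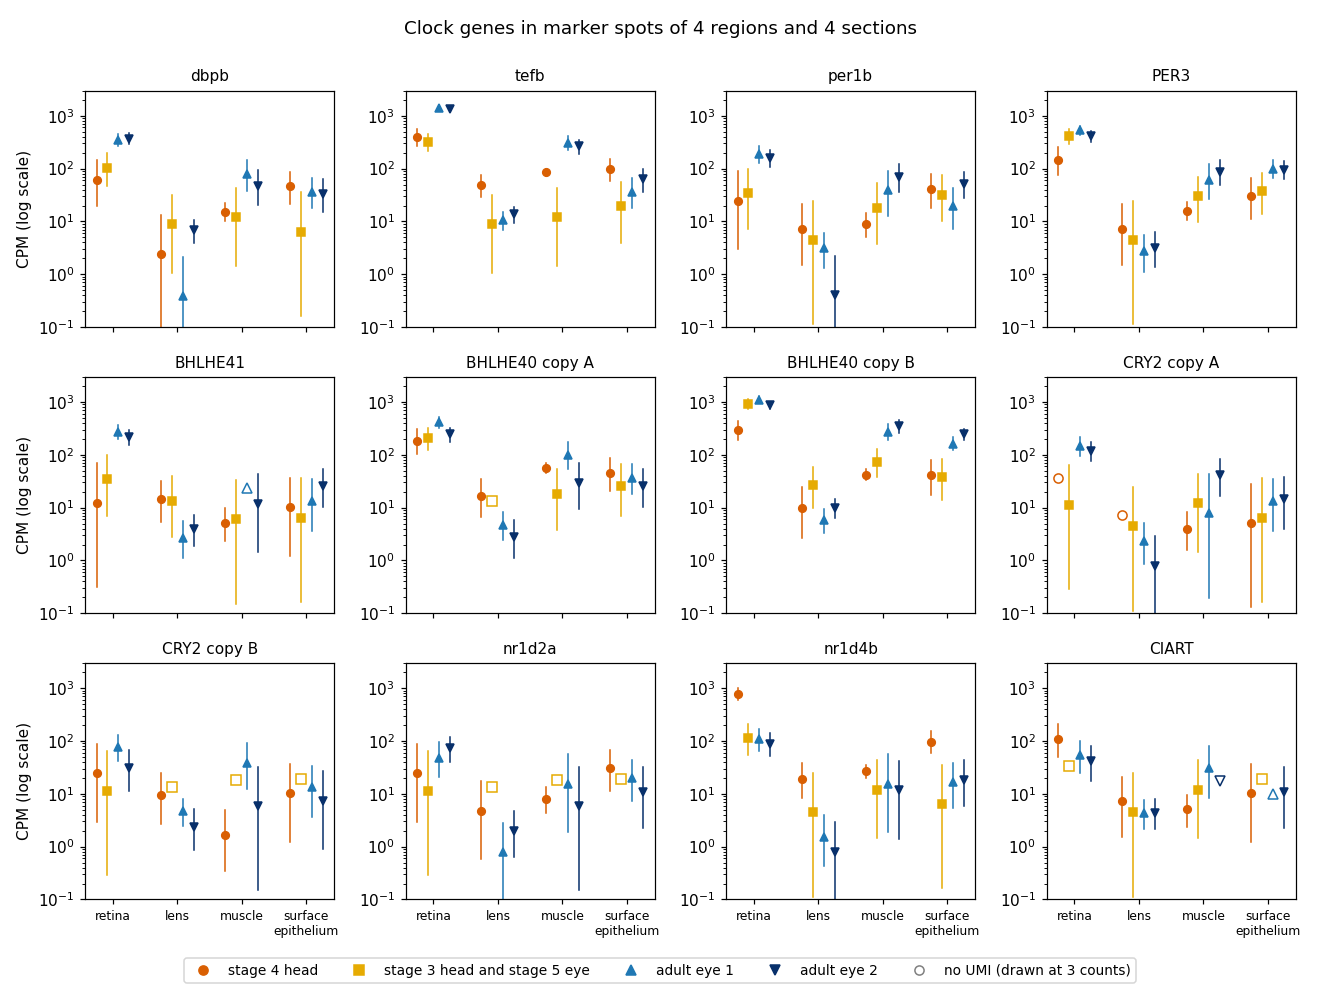
Level of each clock gene (CPM, log scale) in marker spots of 4 regions, 1 point per section with its exact 95% Poisson interval; open symbols mark sums with no UMI, drawn at the level of 3 counts. The adult points (triangles) are highest in retina in every panel, and nr1d4b has its highest point in the stage 4 retina at 788 CPM.

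Gene by gene, retina was the highest of the 4 regions in 42 of 48 gene and section pairs. It was the highest for 8 of 12 genes at stage 4, 10 of 12 in the mixed area, and all 12 in each adult eye. Among genes with at least 20 UMIs over the 4 regions of a section, retina was the highest for 51.6%, 62.8%, 58.1% and 54.4% of all genes in that order, and for 7 of 9, 4 of 4, 11 of 11 and 11 of 11 clock genes. Lens was the lowest in 37 of 48 pairs. Among the same genes with at least 20 UMIs, lens was the lowest for 39%, 41.6%, 68.8% and 72.1% of all genes and for 8 of 9, 4 of 4, 9 of 11 and 10 of 11 clock genes, so in the adult eyes a low level in the lens was shared by most genes.

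The PAR bZIP factors were the output factors on the list. tefb, the TEF gene, stood at 394 CPM in the stage 4 retina, 319 CPM in the mixed-area retina, 1423 CPM in adult retina 1 and 1317 CPM in adult retina 2. Both adult values lay above both developmental values. In muscle tefb was at 84.6, 12.03, 310 and 264 CPM, so the adult muscle values also lay above the developmental ones. In surface epithelium it was at 97.1, 19.2, 36.7 and 62.5 CPM, and there adult and developmental values overlapped. In lens it was at 48.2, 8.88, 10.5 and 13.5 CPM. dbpb, the DBP gene, was at 61.5, 102, 345 and 367 CPM in retina, 15.2, 12.03, 77.4 and 46.9 CPM in muscle, and 46.0, 6.41, 36.7 and 33.1 CPM in surface epithelium. It followed the same order as tefb in the adult eyes, with retina above muscle and muscle above surface epithelium in each. Adult mean dbpb was 356 CPM ± 15.1 (SD, n = 2) in retina and 3.58 ± 4.52 in lens.

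The period genes encode the proteins of the repressor arm. per1b was at 24.6 CPM in the stage 4 retina, 34.1 in the mixed-area retina, 191 in adult retina 1 and 160 in adult retina 2. Only 2 and 3 UMIs lay behind the developmental retina values. In muscle it was at 9.03, 18.0, 38.7 and 70.4 CPM and in surface epithelium at 40.9, 32.0, 20.01 and 51.4 CPM, where adult and developmental sections overlapped. PER3 was at 148, 410, 530 and 408 CPM in retina, so adult retina 2 did not exceed the mixed-area retina. In muscle PER3 was at 15.8, 30.1, 62.0 and 88.0 CPM and in surface epithelium at 30.7, 38.5, 100 and 95.5 CPM. In both regions the adult values lay above the developmental ones. In lens it was between 2.71 and 7.22 CPM.

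Cryptochromes are the partners of the period proteins. CRY2 copy A had no UMI in the stage 4 retina and 11.4 CPM in the mixed-area retina (1 UMI), against 149 CPM in adult retina 1 and 119 CPM in adult retina 2. The adult retina intervals lay above both developmental ones. In muscle it was at 3.95, 12.03, 7.74 and 41.1 CPM, in surface epithelium at 5.11, 6.41, 13.3 and 14.7 CPM, and in lens at most at 4.44 CPM. CRY2 copy B was at 24.6, 11.4, 77.4 and 31.0 CPM in retina, with overlapping intervals between adult retina 2 and both developmental sections. Its level in muscle, 1.69, 0, 38.7 and 5.87 CPM, rested on 5 UMIs in adult eye 1 and 1 UMI in adult eye 2.

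Among the DEC repressors, BHLHE41 had its high levels in adult retina among these 4 regions, and both BHLHE40 copies had wider levels. BHLHE41 was at 12.3 CPM in the stage 4 retina, 34.1 in the mixed-area retina, 274 in adult retina 1 and 217 in adult retina 2. In muscle it reached at most 11.7 CPM, in lens at most 14.4 CPM and in surface epithelium at most 25.7 CPM in any section. Both adult retina sections stood above every other sum of the 4 regions. In lens the developmental values of 14.4 and 13.3 CPM lay above the adult values of 2.71 and 3.98 CPM. BHLHE40 copy B was at 295, 910, 1101 and 868 CPM in retina, 42.3, 72.2, 271 and 346 CPM in muscle, and 40.9, 38.5, 163 and 242 CPM in surface epithelium. Adult and developmental values overlapped in retina and were apart in muscle and surface epithelium. BHLHE40 copy A was at 185, 205, 411 and 243 CPM in retina, 56.4, 18.0, 101 and 29.3 CPM in muscle, and 46.0, 25.6, 36.7 and 25.7 CPM in surface epithelium, so of the pair copy A had adult and developmental values apart only in retina.

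Unlike nr1d2a, nr1d4b and CIART did not have both adult retinas above both developmental ones. nr1d4b, a receptor of the NR1D family in fish, was at 788 CPM in the stage 4 retina, 114 in the mixed-area retina, 107 in adult retina 1 and 87.8 in adult retina 2. The stage 4 retina stood above all other sums, and the other 3 retina values had overlapping intervals. In surface epithelium nr1d4b was at 97.1 CPM in the stage 4 head and at 6.41, 16.7 and 18.4 CPM in the other sections, and in lens at 19.3, 4.44, 1.55 and 0.796 CPM. nr1d2a, the NR1D2 (REV-ERB beta) gene, was at 24.6, 11.4, 47.6 and 72.3 CPM in retina on 2, 1, 8 and 14 UMIs. CIART was at 111, 0, 53.6 and 41.3 CPM in retina, so the adult values lay between the developmental ones, and in the other 3 regions it stayed at or below 31.0 CPM.

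Differences between the regions were tested with edgeR's quasi-likelihood test on UMIs summed per region and section, with the section as a block. They were set against the variation of the region differences from section to section. That variation was estimated largely over all genes together, and with no filter almost wholly so. The p-values are thus not gene by gene replicate support. The block takes out the overall level of each section. The adult retina sums still enter, so the tests are not independent of the adult levels the genes were picked on. With no filter on low counts all 12 genes entered, among 14769. 9 of the 12 differed between the regions, where 35.7% of all genes did, and 8 were higher in retina than in lens (12.1% of all genes). 3 genes, PER3, nr1d4b and BHLHE41, were higher in retina than in muscle (10.1%), and 8 were higher than in surface epithelium (9.87%). With a filter on low counts 7 of the 12 genes entered, among 2635. 4 of the 7, dbpb, nr1d4b, per1b and BHLHE40 copy A, would not have passed the filter on their lens, muscle and surface epithelium sums alone, so the counts over the 7 are given as a description. All 7 differed between the regions (80% of all genes) and all 7 were higher in retina than in lens (34.2%). 6 were higher in retina than in muscle (28.4%) and 6 than in surface epithelium (26.1%). The exception was per1b, at 0.63 ± 0.56 (log2 difference ± SE) against muscle (adjusted p = 0.353) and 0.40 ± 0.56 against surface epithelium (adjusted p = 0.59).

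In the filtered fit PER3 had log2 differences of 3.54 ± 0.43 against lens (adjusted p = 2.51e-06), 1.78 ± 0.38 against muscle (adjusted p = 0.00052) and 1.38 ± 0.37 against surface epithelium (adjusted p = 0.00398). nr1d4b, the gene highest in the stage 4 retina, was higher in retina by 2.95 ± 0.42, 2.27 ± 0.41 and 1.77 ± 0.39 in that order, with adjusted p of 9.68e-06, 0.000117 and 0.000736. With no filter these 2 genes passed all 3 contrasts as well, nr1d4b at adjusted p of 0.000156, 0.0067 and 0.0187. nr1d4b, BHLHE40 copy A and dbpb entered the filtered fit only with their retina sums, so their filtered values are a description. tefb differed by 2.79 ± 0.50, 1.51 ± 0.47 and 2.97 ± 0.52 (adjusted p = 0.000116, 0.00983 and 8.92e-05), and its difference from surface epithelium was within 1 SE of its difference from lens. BHLHE40 copy B differed by 3.27 ± 0.46, 1.17 ± 0.40 and 1.75 ± 0.42 (adjusted p = 7.81e-06, 0.0193 and 0.00155). BHLHE40 copy A differed by 2.73 ± 0.50, 1.13 ± 0.46 and 1.96 ± 0.49, and dbpb by 2.81 ± 0.62, 1.39 ± 0.56 and 1.68 ± 0.58. For both, the contrast with muscle was close to the threshold, at adjusted p of 0.0443 and 0.0415. With no filter the muscle contrast was 1.41 ± 0.55 for tefb (adjusted p = 0.0518), 1.03 ± 0.53 for BHLHE40 copy B (adjusted p = 0.196), 0.99 ± 0.54 for BHLHE40 copy A (adjusted p = 0.233) and 1.25 ± 0.56 for dbpb (adjusted p = 0.108), and none of these 4 passed.

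The count of clock genes called against muscle depended on which sections were used. The median log2 difference over the clock genes that entered moved less. It was 1.39 in the filtered fit over all sections and ran from 1.23 (without the mixed area) to 1.70 (without the stage 4 head). In the filtered fit 6 clock genes were higher in retina than in muscle without the stage 4 head (29.8% of all genes), 2 without the mixed area (24.3%), 3 without adult eye 1 (25%) and 2 without adult eye 2 (25.5%). With no block for the section 1 was (26.1%). With 6 or 7 clock genes in each of these fits, counts of 1 and 2 are near the share of all genes. PER3 and nr1d4b kept all 3 contrasts in the filtered fit whichever section was left out, and dbpb lost its surface epithelium contrast whenever a section other than the stage 4 head was left out. Over all sections nr1d4b and dbpb passed the filter only with their retina sums, so for them this is a description. The fitted differences are relative to a scaling (TMM) that centres on most genes and therefore draws in the lens contrast: over the 4411 genes of the fit to the adult eyes, the median gene was 2.47 and 2.41 log2 units higher in retina than in lens in CPM in adult eyes 1 and 2, and 0.71 higher in the fit itself. Against muscle it was 0.77 and 0.65 higher in CPM and 0.27 in the fit, and against surface epithelium 1.17 and 0.93 higher in CPM and 0.30 in the fit. In the stage 4 head and the mixed area the same genes had CPM medians of 1.25 and 1.43 against muscle and 0.81 and 1.42 against surface epithelium. Part of the CPM gaps between retina and these regions was thus shared by the median gene.

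In the adult eyes alone, with no filter, all 12 clock genes entered among 13825 genes. The symbols had been picked on the difference of these adult sections from the developmental ones, so these tests are not independent of that choice. The counts and p-values of the adult fits are therefore a description. 10 of the 12 differed between the regions (41% of all genes), 9 were higher in retina than in lens (14.5%), 8 than in muscle (10.2%) and 9 than in surface epithelium (11.4%). BHLHE41 was higher in retina by 2.36 ± 0.41 against lens, 4.50 ± 0.67 against muscle and 2.67 ± 0.45 against surface epithelium (adjusted p = 7.18e-08, 5.14e-10 and 4.65e-08). Its muscle sums held no UMI in adult eye 1 and 2 UMIs in adult eye 2. CRY2 copy A differed by 2.55 ± 0.53, 1.71 ± 0.56 and 2.25 ± 0.54 (adjusted p = 1.52e-05, 0.0149 and 0.000302). With the filter 10 clock genes entered among 4411 genes, and 5 of them, BHLHE41, CRY2 copy A, nr1d2a, nr1d4b and BHLHE40 copy A, passed it only with their retina sums. 9 of the 10 differed between the regions (86.8% of all genes), all 10 were higher in retina than in lens (39.7%), and 9 were higher than in muscle (31%) and 9 than in surface epithelium (32.1%), with nr1d2a the exception in both. DESeq2 on the same genes called 9 against lens (26.4% of all genes), 6 against muscle (19.3%) and 7 against surface epithelium (21.5%). per1b, with no call against muscle or surface epithelium over all sections, was higher in adult retina than in surface epithelium by 1.33 ± 0.41 with the filter (adjusted p = 0.00312) and by 1.34 ± 0.42 without it (adjusted p = 0.00865). Against muscle it passed with the filter only, at 1.07 ± 0.43 (adjusted p = 0.028) and 1.04 ± 0.44 without it (adjusted p = 0.0942). The fits rest on 3 residual degrees of freedom, so the spread of a gene comes almost wholly from that shared over all genes. Small p-values here, such as those of BHLHE41, are therefore not replicate support for that gene from 2 sections.

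In the developmental sections alone, with no filter, all 12 clock genes entered among 13408 genes and 2 differed between the regions (14% of all genes). 3 genes, PER3, BHLHE40 copy B and nr1d4b, were higher in retina than in lens (1.64% of all genes), by 3.08 ± 0.96, 2.85 ± 0.79 and 2.94 ± 0.91 (adjusted p = 0.0362, 0.0116 and 0.0329). BHLHE40 copy B was also higher than in surface epithelium (2.83%), by 2.47 ± 0.77 (adjusted p = 0.0242). In edgeR none was higher than in muscle (3.67%), where 1 clock gene had an unadjusted p under 0.05. CRY2 copy A lay below 0 in all 3 contrasts, at -0.42 ± 2.44, -2.55 ± 1.82 and -1.24 ± 2.15 against lens, muscle and surface epithelium. BHLHE41 lay below 0 against lens and muscle, and CRY2 copy B against lens. nr1d2a and per1b did so against muscle and surface epithelium. None of these was called, and all other differences lay above 0. With the filter 6 clock genes entered among 2380, and all but tefb, that is 5 of them, passed it only with their retina sums. 3 of the 6 differed between the regions (60.3% of all genes), 4 were higher in retina than in lens (15.5%), 1 than in muscle (26.4%) and 2 than in surface epithelium (18.6%). nr1d4b, 1 of those 5, passed in all 3 contrasts there, by 3.06 ± 0.79, 2.30 ± 0.71 and 1.96 ± 0.71 (adjusted p = 0.004, 0.00836 and 0.0288). This is a description, since with no filter it passed against lens only. Its adjusted p was then 0.14 against muscle and 0.138 against surface epithelium. With the filter tefb stood at 1.90 ± 0.75 against lens (adjusted p = 0.055). These fits, too, rest on 3 residual degrees of freedom and borrow the spread from all genes. Whether the differences between regions changed from developmental to adult sections was not tested.

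**Figure D2:**
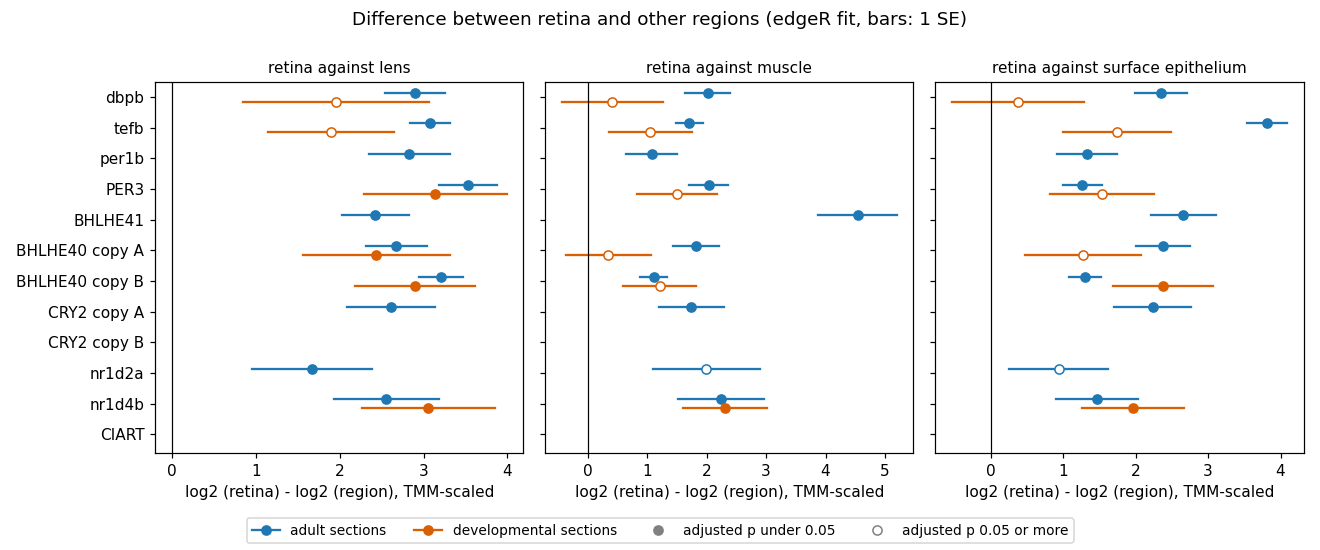
Log2 difference of each clock gene between retina and lens, muscle or surface epithelium in the edgeR fits of the adult sections (blue) and of the developmental sections (orange), with bars of 1 SE; filled points have an adjusted p under 0.05, and a gene with no point did not pass the filter. Of the genes shown 5 of 10 adult and 5 of 6 developmental ones passed it only with their retina sums. All points shown lie right of 0, but with no filter some differences of genes left out here lay below 0. The developmental bars are mostly wider than the adult ones, but not for nr1d4b against muscle.

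The adult level was then set against the developmental level region by region, which is the difference the genes had been picked on. The log2 ratio of adult to developmental mean level was taken relative to the median gene of a region, for genes with at least 20 UMIs there. Its median over the clock genes was 1.12 in retina (12 genes), 0.06 in lens, 0.49 in muscle and -0.52 in surface epithelium (7 genes each). The 10 CPM added to each mean makes changes of low genes, as in lens, look smaller. The medians also rest on different genes, so they do not rank the regions. In retina 8 of the 12 genes had both adult sections above both developmental sections, where 27.2% of the 4412 genes with at least 20 UMIs did, and nr1d4b had both below (13.1% of all genes). 5 genes, dbpb, tefb, per1b, BHLHE41 and CRY2 copy A, were at least 2-fold higher in each adult retina than in either developmental retina (3.31% of all genes), where a developmental level under 3 counts was raised to 3 counts for the ratio. For the same 5 the adult intervals lay above the developmental ones (1.45% of all genes). The lower adult over the higher developmental level was 3.37 for dbpb and 3.34 for tefb. The other 3, per1b, BHLHE41 and CRY2 copy A, had 0 to 3 UMIs in each developmental retina. The adult eyes themselves differed by a factor of 1.06 to 2.50 per gene in retina, and for all 12 genes their intervals overlapped, as for 97.9% of all genes.

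In lens spots the clock genes did not show a higher adult level in CPM. Of 7 clock genes with at least 20 UMIs there, none was 2-fold higher in the adult eyes (1.19% of all genes). BHLHE41 was 2-fold higher in both developmental sections, as were 24.6% of all genes. With developmental levels under 3 counts raised to 13.3 CPM in the mixed-area lens, no adult level, at most 13.5 CPM, could meet the adult rule. The count of 0 therefore says nothing particular about the clock genes. All 7 had a lower adult mean, 2 had both adult sections below both developmental ones (54% of all genes), and none had both above (10.7%). The crystallin share of lens spots was 34.3% and 25.5% in the developmental sections and 48.5% and 46.4% in the adult ones, and the median gene fell by 0.48 on the log2 scale. Relative to that median gene 4 of 7 lay above 0.

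In muscle 5 of 7 clock genes, tefb, BHLHE40 copy B, dbpb, per1b and PER3, were at least 2-fold higher in both adult eyes, but so were 26.6% of all genes. The same 5 were the ones with both adult sections above both developmental sections, as were 62.5% of all genes. The median gene was itself higher in adult muscle by 0.96 log2 units, and relative to it no clock gene met the 2-fold rule. The share of all genes that met the rule relative to the median gene was not counted, so this count has no background. The largest relative differences were 1.38 for tefb and 1.28 for BHLHE40 copy B, and nr1d4b stood at -1.27. The developmental muscle spots came from capture areas that held heads and the adult ones from eyes, so part of the body and stage cannot be told apart.

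In surface epithelium PER3 and BHLHE40 copy B, 2 of 7 clock genes, were at least 2-fold higher in both adult eyes, against 12.6% of all genes, and these 2 alone had both adult sections above both developmental sections (49.3% of all genes). Relative to the median gene, which was 0.49 log2 units higher in the adult eyes, BHLHE40 copy B was 1.60 higher and PER3 0.78 higher. Only BHLHE40 copy B still met the rule, and the share of all genes that did so relative to the median gene was not counted. tefb stood at -0.69 and nr1d4b at -1.66 against the median gene there. Surface epithelium markers made up 1.85% to 1.87% of the UMIs of these spots in the developmental sections and 5.83% to 6.87% in the adult ones. Blood markers made up 1.16% to 2.84% and 0.0851% to 0.124% in that order, and the part of both in the results was not tested. As for muscle, the developmental capture areas held heads and the adult ones eyes, so part of the body and stage cannot be told apart. Immediate early genes, which respond to handling as well as to natural stimuli, were summed as a list of 24 genes. They stood at 266 and 231 CPM in the developmental surface epithelium and at 1208 and 1727 CPM in the adult one, and in retina at 702, 79.6, 292 and 392 CPM. In muscle the list was at 121, 259, 379 and 452 CPM in the section order above. In both surface epithelium and muscle the adult values lay above the developmental ones, and in retina they lay between them. Their part in the clock gene levels was not tested.

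**Figure D3:**
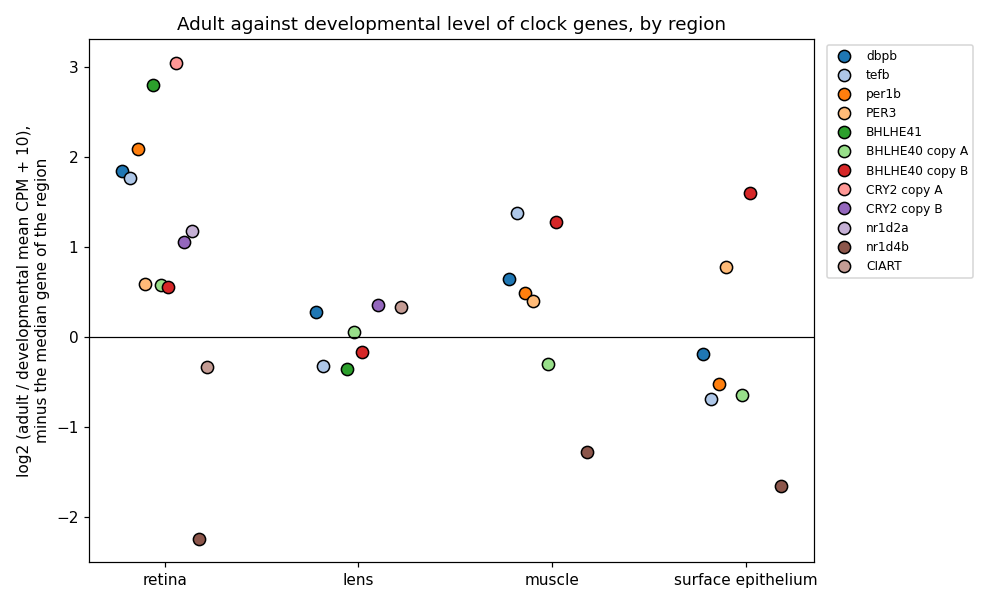
Log2 ratio of adult to developmental mean level (CPM + 10) of each clock gene with at least 20 UMIs in a region, minus the ratio of the median gene of that region. In retina 10 of 12 genes lie above 0, and nr1d4b is below 0 in each region where it is plotted. In lens all 7 lie close to 0, where the added 10 CPM makes changes of these low levels look smaller.

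The developmental retinas also differed from each other. For 4 of the 12 genes their intervals did not overlap (14.2% of the 4412 genes with at least 20 UMIs in retina): PER3 and BHLHE40 copy B were lower in the stage 4 retina, and nr1d4b and CIART were higher there. 7 of the 12 genes had their lowest retina level of the 4 sections in the stage 4 head, as had 53.2% of all genes, and 2, nr1d4b and CIART, had their highest there (16.4%). 4 had their lowest level in the mixed area (19.5%). With 1 section each, the difference has no replicate check.

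Within the retina spots, those led by photoreceptor markers and those led by inner retina markers were set side by side. BHLHE41 was higher in photoreceptor-led spots in 4 of 4 sections, at 18.3, 50.2, 301 and 227 CPM against 0, 0, 165 and 189 CPM. CRY2 copy B was also higher there in 4 of 4 sections, at 36.5, 16.7, 84.9 and 36.5 CPM against 0, 0, 55.0 and 0 CPM, on few UMIs. For both genes the stage 4 and mixed-area values lay at or below the level of 3 counts. That level was 54.8 and 50.2 CPM in photoreceptor-led spots and 130 and 120 CPM in inner-led spots, so these sections do not show a side. Of all genes 13.9% were higher in the photoreceptor-led spots of all 4 sections, so 2 of 12 clock genes is near the share of all genes. The other 10 clock genes had no side that was higher in all 4. In the adult eyes tefb was at 1421 and 1352 CPM in photoreceptor-led spots and at 1404 and 1225 CPM in inner-led spots. per1b was at 208 and 190 CPM against 110 and 75.4 CPM, where 3 counts in the adult inner-led spots were 82.6 and 56.6 CPM. It was thus higher in the photoreceptor-led spots of both adult eyes, on few inner-led UMIs. So were tefb, PER3, BHLHE41, BHLHE40 copy B, both CRY2 copies and nr1d2a, but not dbpb, BHLHE40 copy A, nr1d4b and CIART. The share of all genes with this order in the adult eyes was not counted.

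Outside the 4 regions, the summed clock genes were at 639, 725, 1535 and 806 CPM in pigment epithelium marker spots, whose retina markers made up 0.690% to 1.85% of UMIs. In connective tissue they were at 598, 247, 584 and 571 CPM, in cartilage and bone at 282, 270, 413 and 639 CPM, and in spots led by blood markers at 217, 162, 518 and 541 CPM. Retina exceeded all of these in each section. Spots led by the brain marker list were at 299 CPM (stage 4) and 372 CPM (mixed area) and at 1999 and 1319 CPM in the adult eyes, where no brain is labelled and the same spots held 0.660% and 0.621% retina markers. BHLHE41 in pigment epithelium was at 29.5, 25.4, 109 and 126 CPM, so its adult values there, too, lay above its developmental ones.

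**Figure D4:**
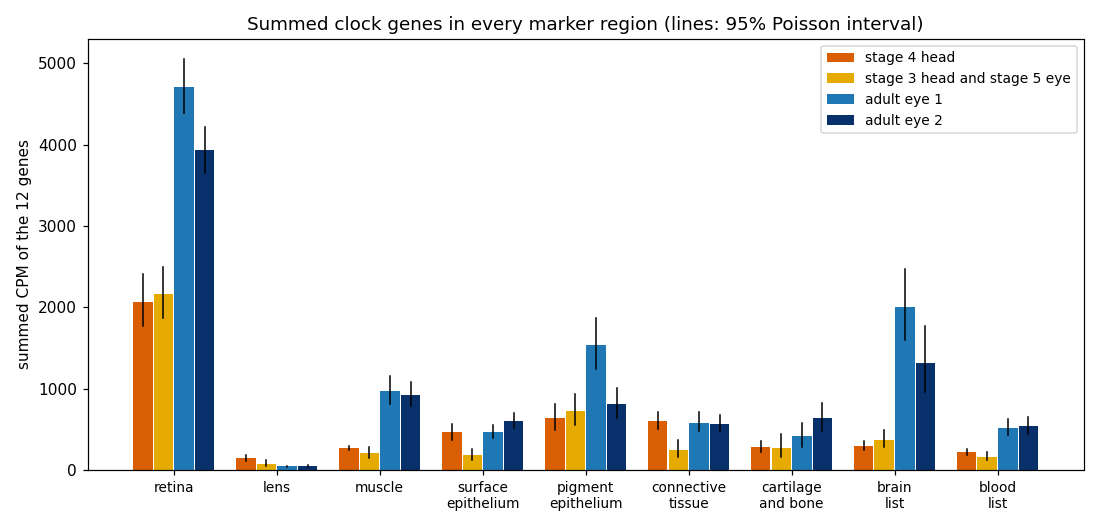
Summed level of the 12 clock genes (CPM) in the spots of each of 9 marker lists, 1 bar per section with its exact 95% Poisson interval. The adult retina bars, at 4709 and 3930 CPM, are the tallest, and the lens bars the shortest at 43.4 to 147 CPM.

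The share of spots with a UMI gave the same ordering of retina and lens. After thinning each spot to 500 UMIs and leaving out shallower spots, 54.4%, 69.1%, 82.6% and 73.2% of retina spots held a UMI of any of the 12 genes, in the section order above. In lens spots the shares were 9.73%, 7.14%, 6.45% and 5.70% and are given as the level in a tissue with few of these transcripts. Thinning left out 25, 16, 56 and 86 retina spots and 12, 17, 31 and 93 lens spots. Without thinning the shares were 64.5%, 77.5%, 72.7% and 67.1% in retina, where the median depth of a spot was 629 to 1051 UMIs. In lens they were 30.4%, 17.2%, 30.2% and 28.7%, at a median depth of 1725 to 4925 UMIs. Thinned muscle spots had 20.7%, 8.45%, 41.3% and 37.5%, and surface epithelium spots 21.7%, 7.04%, 29.9% and 26.1%, so in the mixed area both were near the lens share.

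A wider list of 38 further clock genes, chosen with earlier results of these data known, was examined for the rest of the pathway. 30 of them had a UMI in the 4 regions and 8 had none. With no filter on low counts the 30 entered the fit over all sections. 13 were higher in retina than in lens (12.1% of all genes), 9 than in muscle (10.1%) and 5 than in surface epithelium (9.87%). 10 passed the filter of that fit. Which of them passed only through their retina sums was not examined, so the filtered counts and the contrasts below are a description. 8 were higher in retina than in lens (34.2% of all genes), 5 than in muscle (28.4%) and 4 than in surface epithelium (26.1%), and none was called lower. RORB, a ROR receptor found in vertebrate photoreceptor development, was at 123, 148, 101 and 129 CPM in retina and had no UMI in muscle in any section, with a log2 difference of 2.70 ± 0.58 against lens and 4.00 ± 0.72 against surface epithelium (adjusted p = 0.000883 and 0.000186). hlfa, a PAR bZIP factor of the HLF type, was at 320, 228, 482 and 367 CPM in retina and passed all 3 contrasts, at 2.14 ± 0.42, 1.69 ± 0.41 and 1.39 ± 0.41. tefa, the paralog of tefb, passed against lens only (3.53 ± 0.78) and stood at -0.17 ± 0.54 against muscle and -0.40 ± 0.53 against surface epithelium.

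The further genes of the second loop and the activators varied between the retinas. nr1d2b, the paralog of nr1d2a, was at 98.5 CPM in the stage 4 retina, 535 in the mixed-area retina, 839 in adult retina 1 and 733 in adult retina 2. arntl1a, the ARNTL gene that pairs with CLOCK, was at 185, 56.9, 29.8 and 51.6 CPM, with the stage 4 retina highest. The ARNTL2 gene ENSABLG00000011100 was at 160, 11.4, 0 and 46.5 CPM. The CLOCK genes clocka and clockb and the related NPAS2 had no UMI in the 4 regions, nor had ciarta, NFIL3, nfil3-4, nfil3-6 and the roraa gene ENSABLG00000003874.

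Genes of the turnover and output steps were as follows. Csnk1e, a kinase that marks period proteins for degradation, was at 492, 353, 512 and 563 CPM in retina, with adult and developmental intervals overlapping. csnk1db was at 12.3, 79.6, 113 and 129 CPM, and CSNK1D at 0, 45.5, 23.8 and 36.2 CPM. fbxw11a, an F-box gene of the family that marks period proteins for breakdown, was at 73.9, 102, 101 and 25.8 CPM. cry1a was at 73.9, 307, 185 and 217 CPM, highest in the mixed-area retina. The PER2 gene ENSABLG00000022086 was at 0, 11.4, 59.5 and 36.2 CPM on 0, 1, 10 and 7 UMIs, and dbpa, the paralog of dbpb, at 36.9, 102, 185 and 134 CPM. A further 11 detected genes had at most 2 UMIs in any retina sum: HLF, nfil3-3, both nfil3-5 genes, NR1D1, nr1d4a, the other roraa, the other ARNTL2, cry3a, cry5 and the other PER2. AANAT, the enzyme that sets the rate of melatonin synthesis, was at 36.9, 114, 518 and 269 CPM in retina, at least 2-fold higher in both adult retinas. Of 15 further genes with at least 20 UMIs in retina it was the only 1 (3.31% of all genes). 1 was 2-fold higher in both developmental retinas, for which no share of all genes is given. In muscle 5 of 8 further genes were 2-fold higher in both adult eyes (26.6% of all genes). Relative to the median gene, the median log2 ratio of the further genes was 0.20 in retina and 0.87 in muscle. aanat1, the paralog of AANAT, was at 135, 45.5, 304 and 248 CPM in retina and at 275, 153, 388 and 377 CPM in pigment epithelium, where all 4 sections exceeded the retina value of the same section.

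**Figure D5:**
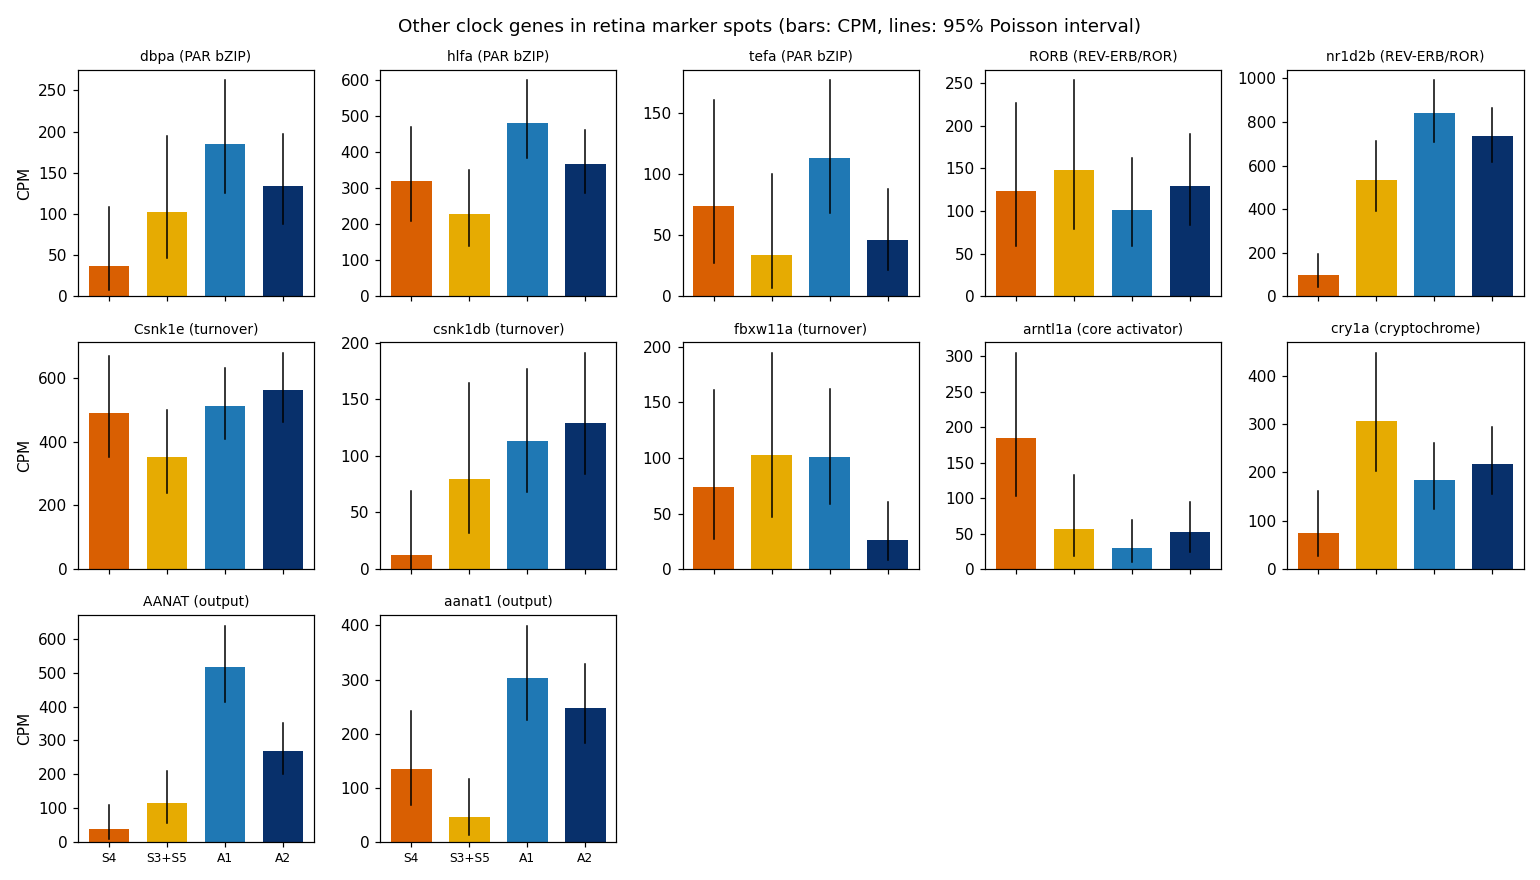
Level (CPM) in retina marker spots of 12 further clock genes with at least 30 UMIs there, 1 bar per section (S4, stage 4 head; S3+S5, mixed area; A1 and A2, adult eyes) with its exact 95% Poisson interval. nr1d2b, AANAT and dbpa are among those with both adult bars above both developmental bars (27.2% of all genes), and arntl1a has both below (13.1%).

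Among 3104 genes with at least 100 UMIs over the 16 region sums, the 5 outside the clock list most like the summed clock genes were irs2a (Pearson r = 0.976), azin1b (0.976), irf2bp2a (0.975), rasgef1bb (0.968) and LAPTM4A (0.967), over log2(CPM + 10) of the 16 sums. The sums share 4 libraries, and the correlations are a description. irs2a, the gene of an insulin receptor substrate, was at 419, 216, 726 and 599 CPM in retina, at 41.2, 18.0, 170 and 200 CPM in muscle and at 4.44 to 16.9 CPM in lens.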

How the data were processed

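Frozen tissue was sectioned at 10 µm for the Visium kit, per the labels. The authors deposited raw counts of UMIs for each gene in each spot. Space Ranger 3.1.3 is the program named, per the file headers. The genome build and annotation are not given in the sources used here, so genes carry the files' identifiers and coordinates are not used. Reads shared by near-identical copies, such as both BHLHE40 or both CRY2 genes, could not be examined.

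Spots of at least 100 UMIs, at least 3 UMIs of a region's markers and an enrichment of at least 2 over the section's mean spot went to the region of highest enrichment (9 lists, 251 marker genes matched). Spots were not used as replicates or screened for doublets. The sections share 95 to 1015 spot barcodes, which come from the fixed set of the array. UMIs were summed per region and section and tested with edgeR 4.0.16 in R 4.3.3 (TMM scaling, the filterByExpr filter and the quasi-likelihood test, blocked by section, with adjusted p by Benjamini-Hochberg under 0.05). The fit has 9 residual degrees of freedom over all sections and 3 over the adult ones. Ratios of adult to developmental sections were formed for genes with at least 20 UMIs in a region, on log2(CPM + 10). The log2 fold understates changes of low genes. Clustering used scanpy 1.11.5 and Python 3.11.15. Alternatives were DESeq2 1.42.0, other scalings, filters and spot rules, no block, and leaving out sections. The edgeR fit and the ratio rule were also run on simulated data. In the edgeR simulation the regions of a section were alike except in the genes changed in retina. It therefore does not check the scaling or the error rate where most genes differ between regions. The ratio rule was simulated with counting error only.

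The named genes were the members, every detected gene of the wider list except a few that are not reported here, those at 2 UMIs or fewer in each retina sum by name only, and the 5 most alike genes, of which 1 is given with its levels. Members, lists and tests were chosen with earlier results of these data known, and the fits of the developmental sections alone were added after seeing the data.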

Additional observations from a re-analysis of the deposited data

Results flagged for a closer look

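For CRY2 copy A the sign of the difference between retina and muscle was not the same in the adult and the developmental sections. Its mean level in retina minus that in muscle was 109 CPM in the adult eyes, where both sections were higher in retina, and -2.30 CPM in the developmental sections, where both were lower in retina on 0 and 1 retina UMIs, under the level of 3 counts. Its level was higher in the adult eyes in the mean of both tissues. The difference between the groups was not tested.

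BHLHE41 had a mean adult over mean developmental level of 10.6 in retina and of 0.241 in lens, with both adult sections above both developmental ones in retina and both below them in lens. This difference was not tested either.

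Spots that fitted no marker list are not used in the comparisons. They too held the summed clock genes, at 350.2 CPM at stage 4, 589 CPM in the mixed area, 599 CPM in adult 1 and 262 CPM in adult 2, each above the lens level of its section.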

How the results depend on the processing

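Over all sections, the count of clock genes higher in retina than in lens was 7, and 8 with no filter on low counts and 5 with Leiden clusters (22.2% of all genes), but 4 in the developmental sections alone and 3 there with no filter. Leaving out single sections gave 6 to 7 against lens (25.5% to 37.7% of all genes), 2 to 6 against muscle (24.3% to 29.8%) and 5 to 6 against surface epithelium (21.3% to 29.3%). The count against muscle, 6, fell to 3 with no filter, 2 with Leiden clusters (17.6% of all genes) and 1 with no replicate block. It was 1 in the developmental sections alone and 0 there with no filter in edgeR (1 at an unadjusted p under 0.05). With no replicate block 7 were still higher than in lens (31.0% of all genes). The labels give no pairing of samples across groups, and the block is the section. Against surface epithelium the count of 6 became 2 in the developmental sections alone and 1 there with no filter, and any difference between regions was called for 3 of 6 and 2 of 12. The clustering named no retina cluster in adult eye 1 and no lens cluster in the stage 3 and 5 section. With Leiden clusters the adult retina was thus adult eye 2 alone, where 6, 2 and 3 clock genes were called against lens, muscle and surface epithelium (7.76%, 8.57% and 5.49% of all genes), so that setting has no retina replicate and is no check of the adult counts. Retina was the highest region in 29 of the 36 pairs of a gene and a section with a retina cluster. Leaving out an adult section from the adult fit was not possible, since no residual degrees of freedom were left. Over the fits without 1 section, per1b against surface epithelium ran from -0.32 (without adult eye 1) to 0.71, and in the developmental sections with no filter it was -1.53, and -1.06 against muscle. Of the remaining log2 differences between regions over all alternatives, 335 kept direction and call, 82 lost the call and 3 gained it. These counts cover only genes that passed the filter of the main fit. Over all sections BHLHE41, both CRY2 copies, nr1d2a and CIART were thus not counted. Of these, all but CIART had a difference below 0 in the developmental sections with no filter. For the adult to developmental log2 ratio, the count of 2-fold higher genes became 0 in muscle and 1 in surface epithelium relative to the median gene, and 1 in surface epithelium with Leiden clusters. The shares of all genes under these settings were not counted. Signs turned in 15 ratios. Relative to the median gene the lens values were 0.28 for dbpb, 0.059 for BHLHE40 copy A, 0.35 for CRY2 copy B and 0.34 for CIART, the muscle value of BHLHE40 copy A was -0.30 and the surface epithelium value of dbpb was -0.19. In surface epithelium tefb was 0.41 with Leiden clusters, and per1b 0.12 at 500 UMIs per spot and 0.0089 at 6 marker UMIs. Without adult eye 1 or without adult eye 2, surface epithelium values were 0.088 and -0.55 for tefb, 0.40 and -0.63 for per1b, and -0.36 and 0.027 for BHLHE40 copy A, the lens value of dbpb was 0.10 and -0.59, and the muscle value of BHLHE40 copy A was -0.26 and 1.23. CIART in retina was 0.072 at 500 UMIs per spot. The other 197 ratios kept their sign. Retina shares of spots rose to 82.4%, 89.2%, 92% and 92.1% when thinned to 1000 UMIs, and were 72.7% in adult eye 1 with no thinning. The cause of these changes was not tested. Depth limits the developmental retina most, where 0 to 3 UMIs stand behind per1b, BHLHE41, nr1d2a and both CRY2 genes.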
